A study of Homo sapiens with 5 samples.

Results

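NRAS, HRAS, RRAS2, SOS1, NF1, BRAF and MAP2K1 are 7 genes of the RAS and MAPK pathway, and their poly(A) sites were read in HEK293T cells with or without a subunit of cleavage factor Im. The rows of these 7 gene symbols were taken from the table of read counts at poly(A) sites, out of 31173 gene symbols. They listed 296 of 272248 distinct sites, and 229 of them held a read, against 205237 in the whole table. RAS proteins are small GTPases that are active when bound to GTP. SOS1 is an exchange factor that loads RAS with GTP, and NF1 (neurofibromin) is a GTPase activator that returns RAS to its GDP form. Active RAS recruits RAF kinases such as BRAF, which phosphorylate MEK1, the product of MAP2K1, and MEK1 phosphorylates the ERK kinases. NRAS and HRAS are classical RAS proteins, and RRAS2 (TC21) is a close relative.

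The study concerned mRNA 3′ end processing. Cleavage factor Im joins the UGUA-binding subunit CFIm25 (gene NUDT21) with CFIm59 (gene CPSF7) or CFIm68 (gene CPSF6), and is known to bear on the choice between poly(A) sites of 1 gene. The 3 groups were a wild type HEK293T control with 1 library, CFIm59 knockout cells with 2 libraries and CFIm68 knockout cells with 2 libraries, with no other treatment given. HEK293T is a human embryonic kidney cell line, and both knockouts were made in it with CRISPR/Cas9. The labels call the libraries of a knockout cell line 1 and cell line 2 and do not say how many edited cells founded each. All comparisons against the wild type share the lone control library.

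The libraries held 1673687 to 2924266 reads, and mitochondrial sites took 6.01% to 10.8% of them. All 9 markers of the embryonic kidney line had a read in every library, with a summed level of 906 to 1356 CPM (reads scaled by library total). Most of that sum came from VIM, with 1125 to 3390 reads a library. PAX2 had 4 to 39 reads and SIX2 5 to 56, beside 15 to 31 for the fibroblast marker COL1A1. Of 4 fibroblast markers 1 had a read in every library, COL1A2 was at 0 throughout and the sum was 8.96 to 17.0 CPM, and the 3 blood markers, of which 0 had a read in every library, summed to 0.387 to 5.47 CPM. Both epithelial markers, EPCAM and CDH1, had reads in every library, with a sum of 56.2 CPM in CFIm59 knockout line 1 and 9.23 to 17.6 CPM in the other 4 libraries. The part of this in the results was not tested, and values without that line are given where they change a call. CPSF6 had a control level of 119.9 CPM, beside 46.8 ± 1.58 CPM (SD, n = 2) in the lines lacking CFIm68 (log2 change -1.35, adjusted p = 0.000512). CPSF7 had a control level of 59.8 CPM, beside 62.0 ± 9.15 CPM (SD, n = 2) in the lines lacking CFIm59, and reads at the 3′ end of its mRNA do not check a small edit further upstream, so the CFIm59 label is taken as given.

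The 7 genes held 3434 reads over the 5 libraries. The control had 739 of these, the lines lacking CFIm59 403 and 629, and the lines lacking CFIm68 934 and 729. Last exon sites took 83.5% of the reads of the 7 genes, intron sites 15.6% and upstream exon sites 0.844%, where all nuclear sites had 89.3%, 9.43% and 1.28%. HRAS had a read at 1 of 2 listed sites, NRAS at 15 of 19, RRAS2 at 23 of 26, SOS1 at 44 of 60, NF1 at 70 of 93, BRAF at 58 of 74 and MAP2K1 at 18 of 22. HRAS, NRAS, RRAS2 and MAP2K1 therefore had over 90% of their reads in the last exon, whereas 41.5% of BRAF reads, 37.8% of NF1 reads and 26.9% of SOS1 reads lay in introns.

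The annotated 3′ ends of the transcripts show which poly(A) signal a gene carries there. The 30 bases below come from near the 3′ end of the transcript that the table names, read from GENCODE v29 on GRCh38. Capitals mark the AATAAA nearest that end, or the variant ATTAAA where the last 50 bases hold no AATAAA. The MAP2K1 stretch also holds an unmarked ATTAAA nearer the end. The read sites carry hg19 positions and were not matched to these ends by coordinate. The signal is the hexamer that the cleavage machinery reads, and AATAAA is its commonest form.
NRAS: AATAAAaactggaagttcttggcttagtca
RRAS2: gtatttatggATTAAAaactgcttataaaa
SOS1: aatAATAAAgaaaaatgccttacatagccc
BRAF: AATAAAgattgactgcatggagaagtcttc
MAP2K1: AATAAAaggcccattcctttttagattaaa

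NRAS, SOS1, BRAF and MAP2K1 carry AATAAA in the last 50 bases of the transcript, RRAS2 carries ATTAAA and not AATAAA, and NF1 has neither. Among 4974 other genes with a testable pair of sites and a matched transcript, 65.2% had AATAAA there, 15.6% had ATTAAA only and 19.3% had neither. The annotated 3′UTR was 3625 nt in NRAS, 4271 nt in SOS1, 7167 nt in BRAF, 3522 nt in NF1, 1697 nt in MAP2K1 and 587 nt in RRAS2, against a median of 1605.5 nt over those genes. The main 2 NF1 sites lie 4441 nt apart, so the 3522 nt do not span both. The NF1 values here leave out sequence between those sites. RRAS2 last exon sites with reads, from 14300402 to 14297528, likewise span more than its 587 nt, so its values also leave out sequence. The letters TGTA, the DNA form of the UGUA that CFIm25 binds, were searched on the transcript strand only. They occurred 25 times in the NRAS 3′UTR (6.90 per kb), 27 times in SOS1 (6.32 per kb), 52 times in BRAF (7.26 per kb), 32 times in NF1 (9.09 per kb), 11 times in MAP2K1 (6.48 per kb) and once in RRAS2 (1.70 per kb). The median over the 4974 genes was 5.96 per kb with quartiles of 3.93 and 8.05, and 95.2% of them held the letters at least once. NF1 thus lay above the upper quartile, RRAS2 below the lower one and the other 4 between them. HRAS had no matched transcript. A match is a run of letters and not a measured binding site.

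The level of a gene is the sum of its reads over all its sites, in CPM after TMM scaling, and levels are compared between libraries, not between genes. In RNA from a whole culture, a change in a few cells and a smaller change in all of them cannot be told apart. Against the control, 1 of the 7 genes was higher in the lines lacking CFIm59 (HRAS) and 2 were lower (NRAS and RRAS2) by the quasi-likelihood test of edgeR (Benjamini-Hochberg adjustment over 14636 genes, threshold 0.05). Over all genes tested 13.9% passed, 6.98% higher and 6.87% lower. The median log2 change was 0.00 over the 7 genes and 0.02 over all genes. In the lines lacking CFIm68 0 of 7 genes passed against the control, where 3.61% of all genes did (1.59% higher and 2.03% lower); 1 of 7 (HRAS) had an unadjusted p under 0.05, and DESeq2 gave none of the 7 an adjusted p. Between the knockouts NRAS and RRAS2 were higher in the lines lacking CFIm68, 2 of 7 genes; of all genes 19.7% passed, 9.46% higher and 10.3% lower.

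**Figure D1:**
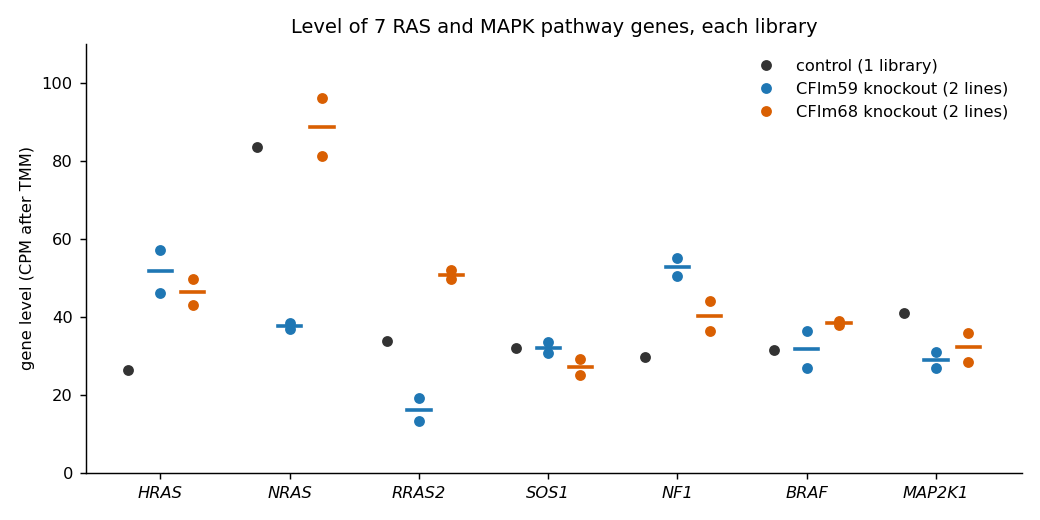
Level of each gene in CPM after TMM scaling (vertical axis, linear) in the control library, the 2 CFIm59 knockout lines and the 2 CFIm68 knockout lines. Points are single libraries and short bars are means of 2 lines; NRAS and RRAS2 lie lowest in both CFIm59 knockout lines and HRAS lies lowest in the control.

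NRAS had 222 reads in the control, 64 and 89 in the lines lacking CFIm59 and 277 and 183 in the lines lacking CFIm68. Its level was 83.5 CPM for the control, 38.4 and 36.9 CPM in the lines lacking CFIm59 and 96.3 and 81.2 CPM in the lines lacking CFIm68. Both CFIm59 knockout lines lay far below the other 3 libraries, and the control lay between the lines lacking CFIm68. The log2 change from the control was -1.15 (SE 0.27, adjusted p = 0.00178) in cells lacking CFIm59 and 0.09 (SE 0.26, adjusted p = 0.91) in cells lacking CFIm68, and the CFIm68 knockout exceeded the CFIm59 knockout by 1.24 (SE 0.23, adjusted p = 4.74e-05). The fall in cells lacking CFIm59 passed without either of its lines and with DESeq2 (adjusted p = 0.0415).

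RRAS2, which signals to some of the same effectors as RAS, had 90 reads in the control, 32 in each CFIm59 knockout line and 143 and 117 in the lines lacking CFIm68. Its level was 33.8 CPM for the control, 19.2 and 13.3 CPM in the lines lacking CFIm59 and 49.7 and 51.9 CPM in the lines lacking CFIm68. The 3 groups did not overlap. The log2 change from the control was -1.09 in cells lacking CFIm59 (SE 0.32, adjusted p = 0.0164) and 0.58 in cells lacking CFIm68 (SE 0.29, adjusted p = 0.296), and the difference between the knockouts was 1.67 (SE 0.27, adjusted p = 5.05e-06). The change in cells lacking CFIm59 no longer passed without CFIm59 knockout line 2 (log2 -0.81, adjusted p = 0.203) or with DESeq2 (adjusted p = 0.245).

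HRAS had 70 reads in the control, 77 and 138 in the lines lacking CFIm59 and 124 and 112 in the lines lacking CFIm68, all at the single last exon site at position 532242 on the minus strand of chromosome 11. Its level was 26.3 CPM for the control, 46.2 and 57.2 CPM in the lines lacking CFIm59 and 43.1 and 49.7 CPM in the lines lacking CFIm68. All 4 knockout lines lay above the control, and the 2 knockouts overlapped. The log2 change was 0.98 in cells lacking CFIm59 (SE 0.30, adjusted p = 0.0213) and 0.81 in cells lacking CFIm68 (SE 0.30, adjusted p = 0.121), and the knockouts differed by -0.17 (SE 0.23, adjusted p = 0.662). The rise in cells lacking CFIm59 no longer passed without CFIm59 knockout line 2 (adjusted p = 0.152) or with DESeq2 (adjusted p = 0.22). Since HRAS had reads at 1 site, it has no site choice to compare.

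None of SOS1, NF1, BRAF and MAP2K1 passed in level in any of the 3 comparisons. NF1 came nearest, with 79 reads and 29.7 CPM for the control, 50.4 and 55.1 CPM in the lines lacking CFIm59 and 44.1 and 36.4 CPM in the lines lacking CFIm68. All 4 knockout lines lay above the control. The log2 change in cells lacking CFIm59 was 0.83 (SE 0.30, adjusted p = 0.0506), and it passed with 1 CFIm68 knockout line left out or with scaling by nuclear reads (adjusted p = 0.0338 to 0.0411). SOS1 stood at 32.0 CPM in the control, 32.1 ± 2.10 in cells lacking CFIm59 and 27.2 ± 3.03 in cells lacking CFIm68 (SD, n = 2 each), with log2 changes of 0.00 (SE 0.31) and -0.24 (SE 0.30). BRAF stood at 31.6 CPM, 31.7 ± 6.67 and 38.5 ± 0.839 in the same order, with log2 changes of 0.02 (SE 0.30) and 0.28 (SE 0.30). MAP2K1 stood at 41.0 CPM, 29.0 ± 2.86 and 32.2 ± 5.28, with log2 changes of -0.49 (SE 0.30) and -0.35 (SE 0.29); both lines of each knockout lay below the control.

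Site choice was read first from a pair of sites, the 2 sites of a gene with most reads over the 5 libraries, of which the upstream one is called proximal and the downstream one distal. NRAS, RRAS2, SOS1, NF1 and BRAF had pairs deep enough to test, all of them in the last exon; HRAS had 1 site, and MAP2K1 had fewer than 5 reads a library at its second site. A log2 change above 0 means relatively more proximal reads. In the lines lacking CFIm68, 3 of 5 pairs moved to the proximal site against the control (NRAS, SOS1 and BRAF) and 0 of 5 to the distal site, where 25.0% of 5869 genes moved to the proximal and 3.10% to the distal site (28.1% in all). Their median log2 change was 1.90 against 0.61 over all genes. In the lines lacking CFIm59 0 of 5 pairs passed by edgeR, against 6.05% of all genes (0.988% to the proximal and 5.06% to the distal site); 1 of 5 (NRAS) had an unadjusted p under 0.05. DESeq2 passed neither NRAS (adjusted p = 0.528) nor RRAS2 (adjusted p = 0.915) and gave BRAF, NF1 and SOS1 no adjusted p. The median was -0.50 against -0.34 over all genes. Between the knockouts the pairs of NRAS, SOS1 and BRAF were more proximal in the lines lacking CFIm68, 3 of 5 where 40.5% of all genes were (and 6.08% more distal, 46.6% in all), with a median of 2.40 against 0.89.

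**Figure D2:**
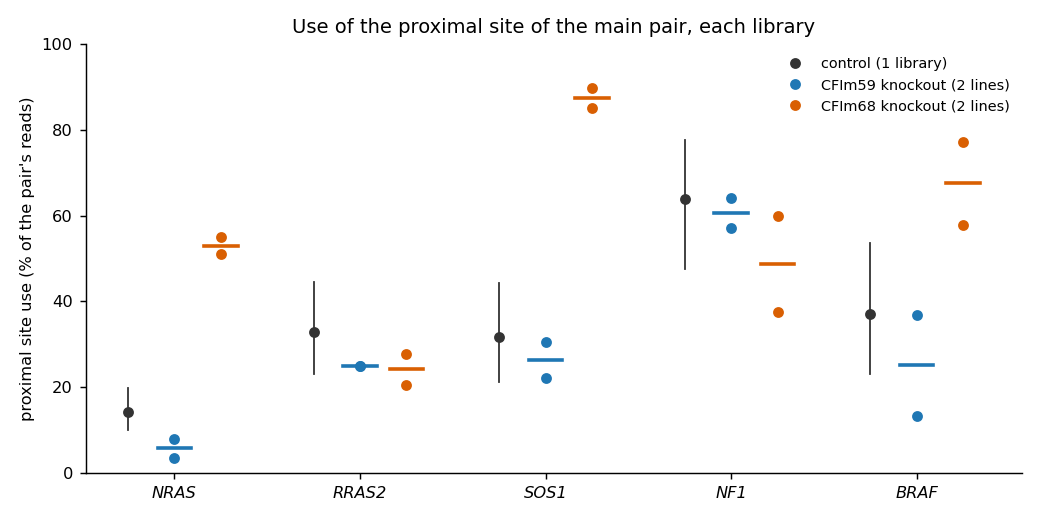
Share of a pair's reads at the proximal site, in percent, in each library. Points are single libraries, short bars are means of 2 lines and vertical lines are Wilson 95% intervals of the control; NRAS, SOS1 and BRAF lie higher in both CFIm68 knockout lines than in the other 3 libraries, and RRAS2 and NF1 do not.

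The NRAS pair lies on chromosome 1, minus strand, at 115249584 (proximal) and 115247093 (distal) of hg19, 2491 nt apart. The proximal and distal sites had 28 and 168 reads in the control. They had 5 and 58 reads in CFIm59 knockout line 1, 3 and 82 in line 2, 78 and 75 in CFIm68 knockout line 1, and 60 and 49 in line 2. Proximal use was therefore 14.3% in the control (Wilson 95% interval 10.1% to 19.9%), 7.94% and 3.53% in the lines lacking CFIm59 and 51.0% and 55.0% in the lines lacking CFIm68. The 3 groups did not overlap. The log2 change was 2.74 in cells lacking CFIm68 (SE 0.44, adjusted p = 2.5e-06), -1.51 in cells lacking CFIm59 (SE 0.63, adjusted p = 0.154) and 4.25 between the knockouts (SE 0.50, adjusted p = 3.58e-10).

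NRAS has more last exon sites than this pair, and 11 sites upstream of the distal one held reads. Together they took 51 of 220 last exon reads in the control, 23.2% (Wilson 95% interval 18.1% to 29.2%). They took 5 of 64 and 6 of 88 reads in the lines lacking CFIm59 (7.81% and 6.82%), and 200 of 275 and 132 of 182 in the lines lacking CFIm68 (72.7% and 72.5%). The 2 lines of a knockout lay close together and the groups far apart. The distal site itself fell from 75.7% of NRAS reads in the control to 27.1% and 26.8% in the lines lacking CFIm68 (log2 change -3.07, adjusted p = 9.89e-11). It stood at 90.6% and 92.1% in the lines lacking CFIm59 (log2 change 1.77, adjusted p = 0.0323). That rise in cells lacking CFIm59 no longer passed without CFIm59 knockout line 1 (adjusted p = 0.175), without line 2 (adjusted p = 0.347), with a lower read minimum (adjusted p = 0.0692) or with diffSpliceDGE (log2 0.21, adjusted p = 1).

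The upstream NRAS reads lay mainly in a cluster 2491 to 3147 nt upstream of the distal site. The most upstream site with many reads, at 115250240, held 9 reads in the control, 0 and 2 in the lines lacking CFIm59 and 61 and 28 in the lines lacking CFIm68. Its share of NRAS reads was 4.05% in the control, 1.12% ± 1.59 in cells lacking CFIm59 and 18.7% ± 4.75 in cells lacking CFIm68 (SD, n = 2 each; log2 change in cells lacking CFIm68 2.45, adjusted p = 0.00019). The site at 115249584 rose from 12.6% to 30.5% ± 3.27 (SD, n = 2; log2 1.58, adjusted p = 0.00264). The 3 weaker sites tested between them held more reads in both lines lacking CFIm68 than in any other library. Their counts of 0 to 2 reads elsewhere give no order between the control and the lines lacking CFIm59. These 3 sites, and the site at 115250240, averaged 5 reads per library only with the lines lacking CFIm68 counted. A rise there was thus partly built into their selection, and their adjusted p values are no independent support for it. A count of 0 in the lines lacking CFIm59 allows a share of up to 4.69% and 3.37%. The site at 115249731 had 2 reads in the control, 0 in both CFIm59 knockout lines and 23 and 20 in the lines lacking CFIm68 (adjusted p = 0.000488 against the control). The site at 115250137 had 2 reads in the control, 0 in both CFIm59 knockout lines and 16 and 11 in the lines lacking CFIm68 (adjusted p = 0.0145). The site at 115250077 had 0 of 222 reads in the control, which allows a share of up to 1.35%, and 4.69% and 6.56% in the lines lacking CFIm68 (adjusted p = 0.000623). Their mean of 5.63% was 4.16-fold that limit. All 5 upstream sites were also higher in the lines lacking CFIm68 than in those lacking CFIm59 (adjusted p = 4.04e-07 to 0.00144); the call at 115250077 was lost without CFIm59 knockout line 2 (adjusted p = 0.0561). With diffSpliceDGE the changes against the control at 115249584 (adjusted p = 0.0684) and 115250137 (adjusted p = 0.0649) no longer passed.

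**Figure D3:**
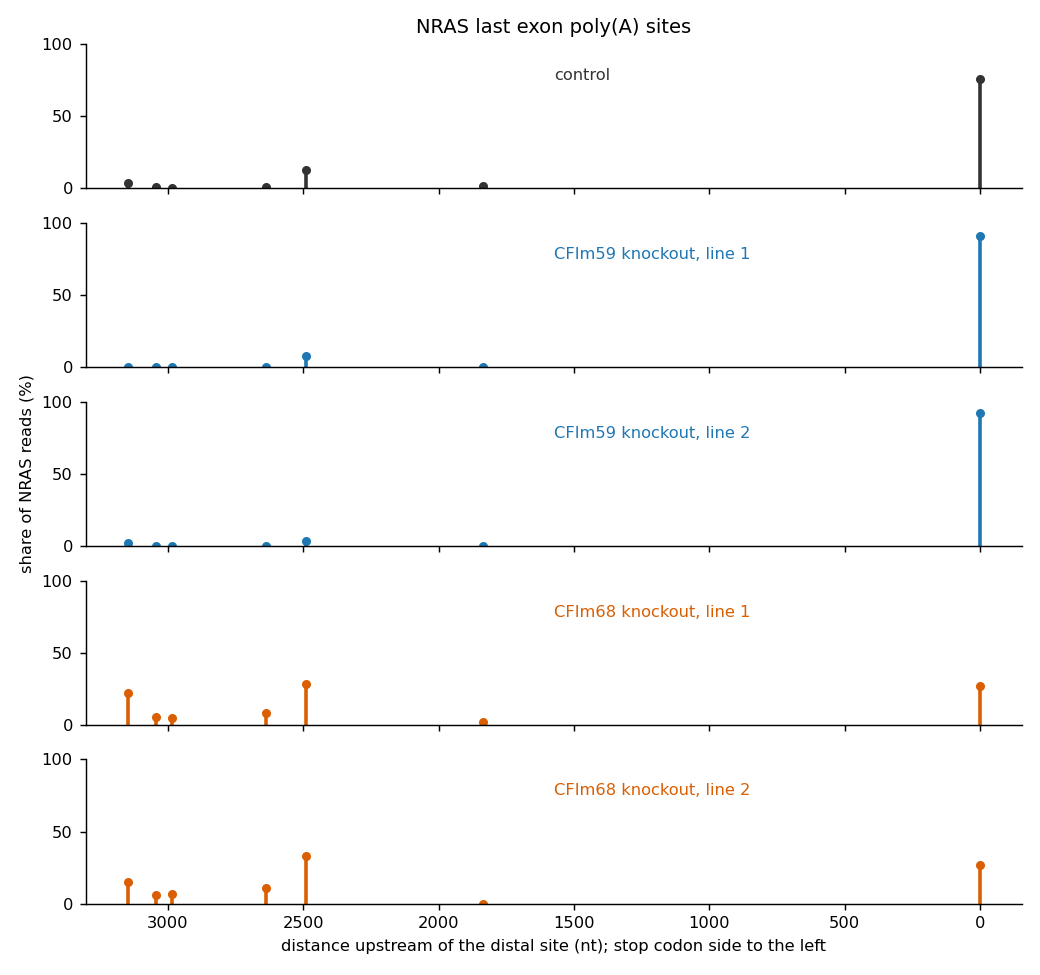
Share of all NRAS reads at each last exon site, in percent, against the distance upstream of the distal site in nt, with 1 panel per library. The distal site at 0 nt holds 75.7% of reads for the control, 90.6% and 92.1% in the lines lacking CFIm59, and 27.1% and 26.8% in the lines lacking CFIm68, where sites 2491 to 3147 nt upstream hold most of the rest.

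RRAS2 has its 2 main sites 103 nt apart, at 14300402 and 14300299 on the minus strand of chromosome 11. The proximal and distal sites had 23 and 47 reads in the control, 3 and 9, then 5 and 15 in the lines lacking CFIm59, and 26 and 101, then 30 and 78 in the lines lacking CFIm68. Proximal use was 32.9% in the control (Wilson 95% interval 23.0% to 44.5%), 25.0% in both CFIm59 knockout lines and 20.5% and 27.8% in the lines lacking CFIm68. Both knockouts lay below the control and overlapped each other, and no comparison passed (log2 change -0.53, SE 0.72 in cells lacking CFIm59 and -0.64, SE 0.53 in cells lacking CFIm68, adjusted p = 0.738 and 0.407). The CFIm59 knockout values rest on 12 and 20 reads. Taken against all RRAS2 reads, the distal site at 14300299 held 52.2% in the control, 28.1% and 46.9% in the lines lacking CFIm59 and 70.6% and 66.7% in the lines lacking CFIm68. It was higher in the lines lacking CFIm68 than in those lacking CFIm59 (log2 1.87, adjusted p = 0.000596), a call lost without CFIm59 knockout line 1 (adjusted p = 0.0999) and with diffSpliceDGE (adjusted p = 0.34). Beside it, intron sites held 28.1% and 15.6% of RRAS2 reads in the lines lacking CFIm59, 8.89% for the control, and 9.09% and 4.27% in the lines lacking CFIm68, on 5 to 13 reads a library. Last exon sites downstream of the pair also held reads, too few for the test. The site at 14299471 had 6 reads in the control, 4 and 2 in the lines lacking CFIm59 and 1 and 0 in the lines lacking CFIm68. That at 14297528 had 4, then 1 and 4, then 0 and 1 in the same order. The pair does not cover these sites.

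SOS1 had the largest change of the 5 pairs against the control in cells lacking CFIm68. Its sites lie 3144 nt apart on chromosome 2, minus strand, at 39211838 (proximal) and 39208694 (distal). They had 19 and 41 reads in the control, 8 and 28, then 15 and 34 in the lines lacking CFIm59, and 35 and 4, then 40 and 7 in the lines lacking CFIm68. Proximal use was 31.7% in the control (Wilson 95% interval 21.3% to 44.2%), 22.2% and 30.6% in the lines lacking CFIm59 and 89.7% and 85.1% in the lines lacking CFIm68. Both CFIm68 knockout lines lay far above the other 3 libraries. The log2 change was 3.85 in cells lacking CFIm68 (SE 0.65, adjusted p = 6.14e-06), -0.33 in cells lacking CFIm59 (SE 0.63, adjusted p = 0.825) and 4.18 between the knockouts (SE 0.59, adjusted p = 3.78e-08).

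Of all SOS1 reads, the distal site held 48.2% in the control, 50% and 45.9% in the lines lacking CFIm59 and 5.56% and 10.6% in the lines lacking CFIm68 (log2 change in cells lacking CFIm68 -3.40, adjusted p = 1.14e-06). The proximal site held 22.4% in the control, 14.3% and 20.3% in the lines lacking CFIm59 and 48.6% and 60.6% in the lines lacking CFIm68 (log2 2.04, adjusted p = 0.00137; with diffSpliceDGE adjusted p = 0.0748). The SOS1 level did not pass in any comparison, while the distal reads fell from 41 in the control to 4 and 7. Intron sites took 23.5% of SOS1 reads in the control, 26.8% and 27.0% in the lines lacking CFIm59 and 34.7% and 22.7% in the lines lacking CFIm68, spread over 31 sites with reads.

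The NF1 pair did not pass in any comparison. Its sites lie 4441 nt apart on chromosome 17, plus strand, at 29704691 (proximal) and 29709132 (distal). They had 23 and 13 reads in the control, 20 and 15, then 41 and 23 in the lines lacking CFIm59, and 15 and 25, then 15 and 10 in the lines lacking CFIm68. Proximal use was 63.9% in the control (Wilson 95% interval 47.6% to 77.5%), 57.1% and 64.1% in the lines lacking CFIm59 and 37.5% and 60.0% in the lines lacking CFIm68. The lines lacking CFIm68 spread over much of the range and line 2 lay within that of the other libraries. The log2 change was -1.0 in cells lacking CFIm68 (SE 0.72, adjusted p = 0.325), -0.15 in cells lacking CFIm59 (SE 0.68, adjusted p = 0.938) and -0.85 between the knockouts (SE 0.56, adjusted p = 0.219). A last exon site upstream of the pair, at 29701322, had 0 reads in the control, 1 and 0 in the lines lacking CFIm59 and 17 and 4 in the lines lacking CFIm68. It had too few reads for the test. The untested last exon sites at 29702755, 29702850 and 29703348 were not higher in both lines lacking CFIm68 than in the other libraries. With the most upstream and most downstream sites that hold 5% of reads as the pair, the value between the knockouts turned to 2.19 (adjusted p = 0.011), since the upstream site is then the intron site at 29674250.

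That intron site upstream of the NF1 last exon held 13 of 79 NF1 reads in the control, 1 of 84 and 6 of 133 in the lines lacking CFIm59, and 18 of 127 and 11 of 82 in the lines lacking CFIm68. Its share was 16.5% in the control (Wilson 95% interval 9.88% to 26.2%), 1.19% and 4.51% in the lines lacking CFIm59 and 14.2% and 13.4% in the lines lacking CFIm68. Both CFIm59 knockout lines lay below the other 3 libraries. The log2 change was -2.55 in cells lacking CFIm59 (SE 0.75, adjusted p = 0.0278), -0.30 in cells lacking CFIm68 (adjusted p = 0.797) and 2.25 between the knockouts (SE 0.61, adjusted p = 0.00134). The call against the control was lost without CFIm59 knockout line 1 (adjusted p = 0.233), without line 2 (adjusted p = 0.0918), with a lower read minimum (adjusted p = 0.0586) and with diffSpliceDGE (adjusted p = 0.238). Over all its intron sites NF1 had 39.2% of reads for the control, 42.9% and 27.8% in the lines lacking CFIm59 and 42.5% and 40.2% in the lines lacking CFIm68, with no separation of groups.

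BRAF, the RAF kinase downstream of RAS, has its pair 5806 nt apart on chromosome 7, minus strand, at 140424943 (proximal) and 140419137 (distal). The sites had 13 and 22 reads in the control, 2 and 13, then 14 and 24 in the lines lacking CFIm59, and 44 and 13, then 22 and 16 in the lines lacking CFIm68. Proximal use was 37.1% in the control (Wilson 95% interval 23.2% to 53.7%), 13.3% and 36.8% in the lines lacking CFIm59 and 77.2% and 57.9% in the lines lacking CFIm68. Both CFIm68 knockout lines lay above the other 3 libraries, but the 2 lines of each knockout differed widely. The log2 change was 1.90 in cells lacking CFIm68 (SE 0.72, adjusted p = 0.0418), -0.50 in cells lacking CFIm59 (SE 0.80, adjusted p = 0.785) and 2.40 between the knockouts (SE 0.63, adjusted p = 0.00138). The change against the control no longer passed without CFIm68 knockout line 1 (log2 1.21, adjusted p = 0.31), with DESeq2 (adjusted p = 0.253) or with no read minimum (adjusted p = 0.0998), and without CFIm68 knockout line 1 the difference between the knockouts also missed the threshold (adjusted p = 0.0599).

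Of all BRAF reads, the proximal site at 140424943 held 15.5% in the control, 4.44% and 15.9% in the lines lacking CFIm59 and 40.4% and 25.0% in the lines lacking CFIm68 (log2 change in cells lacking CFIm68 1.43, adjusted p = 0.0477). That call was lost under 5 of the alternatives run, among them leaving out either CFIm59 knockout line or CFIm68 knockout line 1 (adjusted p = 0.0669, 0.0688 and 0.385). An intron site at 140433814 lies between the pair and a site further upstream, at 140434284. That upstream site is also classed as last exon, but it need not share the last exon of the pair. It had 6 reads in the control, 0 (of 45, up to 6.67%) and 3 in the lines lacking CFIm59 and 13 and 10 in the lines lacking CFIm68. The site at 140434284 averaged 5 reads per library only with the lines lacking CFIm68 counted. It was higher in the lines lacking CFIm68 than in those lacking CFIm59 (log2 2.44, adjusted p = 0.00697), except without CFIm59 knockout line 1 (adjusted p = 0.0815). Over all 5 libraries BRAF had the highest intron share of the 7 genes (41.5%), with 41.7% in the control, 64.4% and 47.7% in the lines lacking CFIm59 and 31.2% and 36.4% in the lines lacking CFIm68. In both lines lacking CFIm68 the intron share of NF1 was higher (42.5% and 40.2%), as was that of SOS1 in line 1 (34.7%). The BRAF share in the lines lacking CFIm59 lay above and in the lines lacking CFIm68 below the control, which was not tested as a class. The largest of these intron sites, at 140533773, had 5 reads in the control, 6 and 8 in the lines lacking CFIm59 and 3 and 2 in the lines lacking CFIm68, too few for the test.

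MAP2K1 ended mainly at 1 site, at 66783881 on the plus strand of chromosome 15, which held 101 of 109 control reads (92.7%), 93.3% and 89.3% in the lines lacking CFIm59 and 85.4% and 84.0% in the lines lacking CFIm68. Both CFIm68 knockout lines lay below the other 3 libraries. No comparison passed, with a log2 change of -1.18 (SE 0.65, adjusted p = 0.198) in cells lacking CFIm68 and -0.34 (SE 0.76, adjusted p = 0.879) in cells lacking CFIm59.

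**Figure D4:**
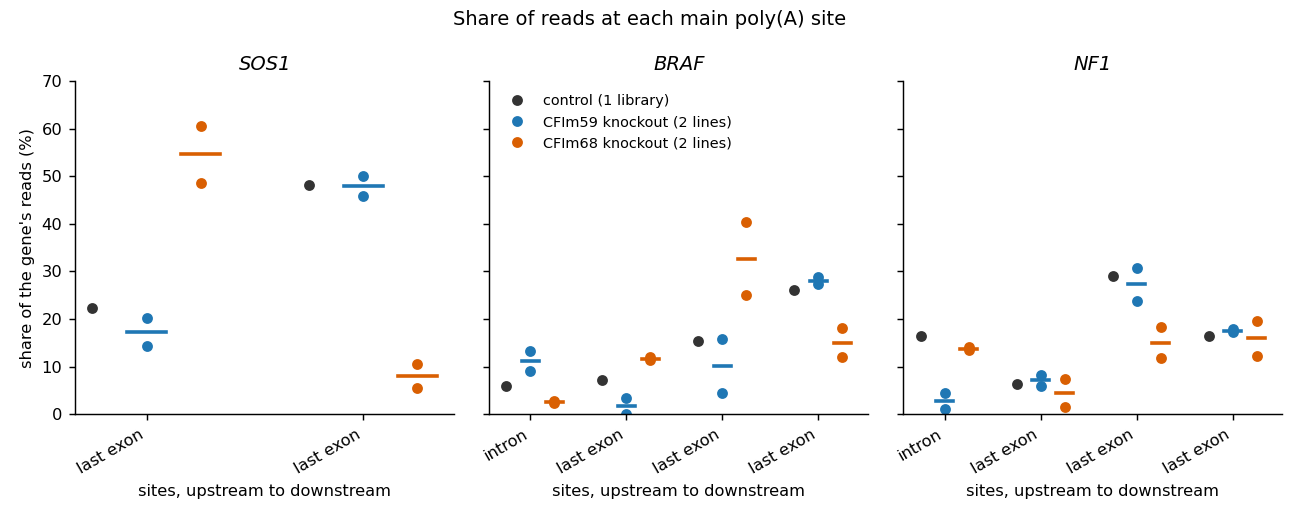
Share of the gene's reads, in percent, at each site of SOS1, BRAF and NF1 that holds at least 5% of reads or passed the test, ordered from upstream to downstream. Points are single libraries and short bars are means of 2 lines; in SOS1 the distal site falls from 48.2% in the control to 5.56% and 10.6% in the lines lacking CFIm68, and the first NF1 site is the intron site that is low in both CFIm59 knockout lines.

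Counted site by site, 18 sites in 6 of the genes were tested, each against the rest of its gene. In cells lacking CFIm68 7 rose and 2 fell against the control, where 10.7% of 20794 sites rose and 12.3% fell (23.0% in all). Of the 7, 5 were the upstream NRAS sites, which share 1 gene's reads. All of these 5 but 115249584 averaged 5 reads per library only with the lines lacking CFIm68 counted, so their rise was partly built into the selection. In cells lacking CFIm59 1 rose and 1 fell, where 1.58% of all sites rose and 2.44% fell (4.02% in all). Between the knockouts 10 were higher and 4 lower in the lines lacking CFIm68, where 21.5% and 20.5% of all sites were (42.0% in all). The same NRAS sites and BRAF 140434284 were among the 10 and carry the same limit.

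**Figure D5:**
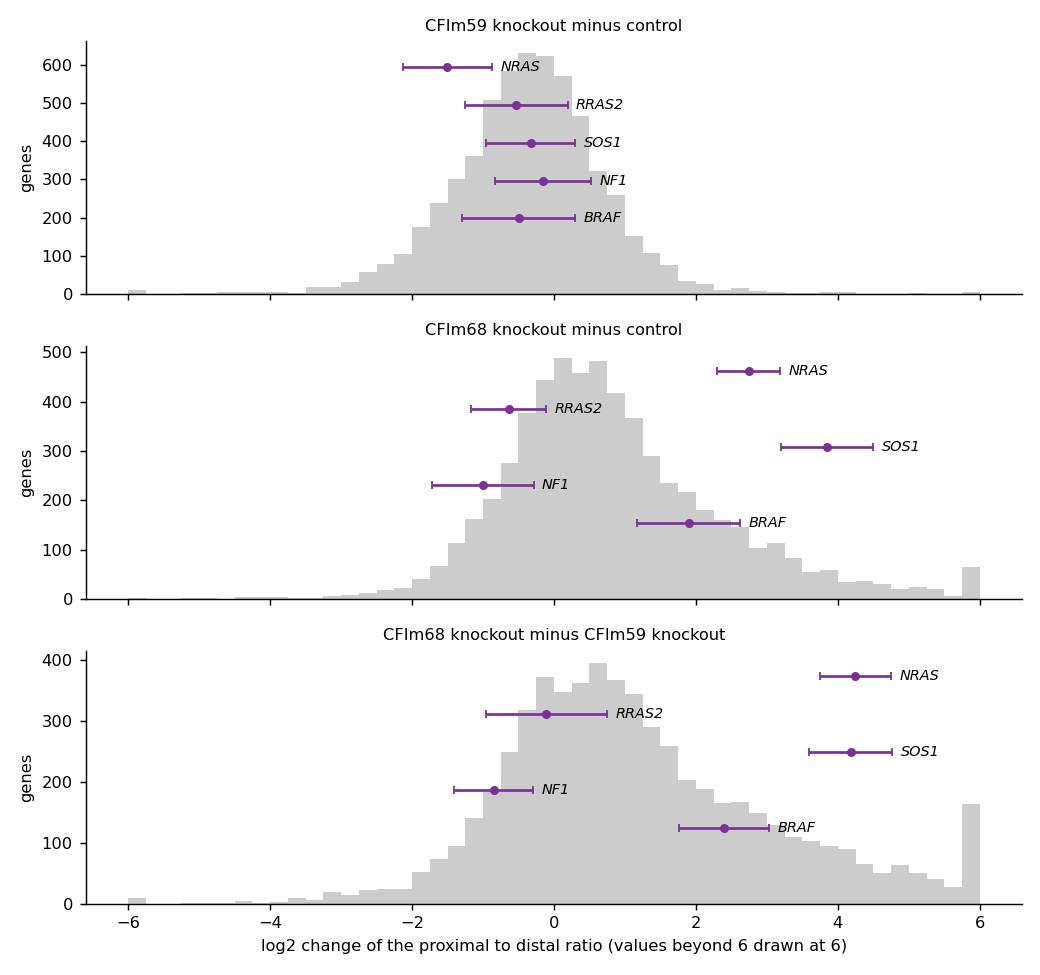
Histograms of the log2 change of the proximal to distal ratio over 5869 genes (grey; number of genes on the vertical axis) for each of the 3 comparisons, with NRAS, RRAS2, SOS1, NF1 and BRAF as points with their standard errors at arbitrary heights. NRAS and SOS1 lie at 2.74 and 3.85 in cells lacking CFIm68, where the median of all genes is 0.61, and all 5 lie between -1.51 and -0.15 in cells lacking CFIm59.

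The patterns of NRAS, SOS1 and BRAF were set beside those of other genes by the distance between proximal use in the 5 libraries, searched over 5715 genes. Nearest to NRAS was GOLGA7 at 3.70 percentage points, with 14.9% in the control, 5.65% and 2.99% in the lines lacking CFIm59 and 49.3% and 57.3% in the lines lacking CFIm68. UBE3C (4.43 points) and CDC42SE2 (4.93 points) followed. Nearest to SOS1 were TIA1 (4.99 points), ANP32E (5.46 points) and ETF1 (7.88 points). BRAF had no neighbour as close, with MAPT at 12.6 points, EIF5 at 13.0 and BET1 at 14.4.

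Beyond the 7 genes, a list of 68 other RAS and MAPK pathway genes was described by counts. In site choice, 34 of them were tested, and 13 moved to the proximal and 1 to the distal site in cells lacking CFIm68 against the control, where 25.0% and 3.10% of all pairs did. Their median log2 change was 0.78, beside 0.61 over all genes. In cells lacking CFIm59 0 moved to the proximal and 1 to the distal site (0.988% and 5.06% of all pairs), with a median of -0.35 beside -0.34. Between the knockouts 18 were more proximal and 0 more distal in the lines lacking CFIm68 (40.5% and 6.08% of all pairs), with a median of 1.60 beside 0.89.

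Among the RAS family GTPases 5 of 8 tested pairs moved to the proximal site in cells lacking CFIm68, beside 25.0% of all pairs. Each role holds few pairs, and its count was not compared with that share by a test. RALA, a GTPase of the RAL branch, went from 35.5% proximal use in the control to 81.7% ± 0.990 (adjusted p = 1.44e-07) and stood at 27.0% ± 0.543 in cells lacking CFIm59 (SD, n = 2 each). RAP1B, a RAP GTPase with a role in cell adhesion, went from 4.08% to 29.6% ± 8.27 (adjusted p = 1.12e-06), and RIT1, another RAS relative, from 43.1% to 75.6% ± 2.98 (adjusted p = 0.0025). Among kinases and scaffolds 3 of 6 moved, beside the same 25.0%. RPS6KA3, the gene of the ERK substrate RSK2, went from 34.2% to 80.0% ± 11.6 (adjusted p = 5.05e-05).

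Exchange factors and adaptors had 2 of 7 tested pairs that moved to the proximal site, a share near the 25.0% of all pairs. PTPN11, the gene of the phosphatase SHP2, went from 13.6% to 54.2% ± 1.70 (adjusted p = 7.6e-05), and PPP1CB, a catalytic subunit of protein phosphatase 1, from 70.3% to 90.4% ± 0.882 (adjusted p = 0.000101). Among the GTPase activators and other inhibitors 2 of 4 moved (25.0% over all pairs), RASAL2, a RAS GTPase activator, from 10% to 58.5% ± 4.23 on 18 to 40 reads a library (adjusted p = 0.00139) and LZTR1, an adaptor of RAS degradation, from 9.72% to 21.7% ± 5.04 (adjusted p = 0.0436). Of 5 receptors 0 moved to the proximal site in cells lacking CFIm68 (25.0% of all pairs), and FGFR1 moved to the distal one (3.10% of all pairs), from 68.4% to 48.2% ± 4.28 (adjusted p = 0.0477). MET, the receptor of hepatocyte growth factor, went from 13.2% in the control to 0 of 41 and 0 of 48 reads in the lines lacking CFIm59, which allow up to 7.32% and 6.25% (adjusted p = 0.0121) and stood at 11.3% ± 3.56 in cells lacking CFIm68. The MET sites are both classed as last exon but lie 28496 nt apart, so they need not share 1 last exon. Of 4 transcriptional targets 1 moved, FOS, which is the share over all pairs (25.0%). The proximal FOS site had 13 and 20 reads in the lines lacking CFIm68 and at most 1 elsewhere. It reached the read minimum only with the lines lacking CFIm68 counted.

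In level, 65 of the 68 genes were tested, and 1 was higher and 2 lower in cells lacking CFIm59 than in the control, where 6.98% and 6.87% of all genes were (13.9% in all). RAPGEF1, an exchange factor for RAP GTPases, rose from 27.1 to 64.7 ± 5.34 CPM (adjusted p = 0.00246), RHEB, the GTPase upstream of mTORC1, fell from 170.3 to 89.3 ± 6.18 CPM (adjusted p = 0.0058), and FOS, an immediate early gene downstream of ERK, fell from 57.9 to 29.7 ± 1.30 CPM (adjusted p = 0.017). In cells lacking CFIm68 1 gene was higher and 1 lower than in the control (1.59% and 2.03% of all genes). FOS rose to 115 ± 25.9 CPM (adjusted p = 0.0285) and MYC fell from 317 to 183 ± 33.2 CPM (adjusted p = 0.0478). Between the knockouts 9 genes were higher and 4 lower in the lines lacking CFIm68, near the share over all genes (9.46% higher and 10.3% lower, 19.7% in all). RASA3, a RAS GTPase activator, was among the lower ones, with 9.4 CPM in the control, 21.2 ± 4.55 in cells lacking CFIm59 and 3.44 ± 1.42 in cells lacking CFIm68 (difference between the knockouts in log2 -2.67, adjusted p = 1.66e-06).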

How the data were processed

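Poly(A) sites of total RNA were sequenced in 5 HEK293T libraries. The deposited file holds counts, the raw number of reads at each site in each library, and gives every site a class (last exon, intron, upstream exon), per the file headers. The submitters' processing notes name hg19, TopHat2 2.1.0 and deepTools 2.4; how sites were called, and whether positions start from 0 or 1, is not stated in the labels. The table had 290072 listings, of which 17824 repeated a site and held 0 reads, and 0 columns without a sample. Reads carry no molecular identifiers: intervals (Wilson, 95%) and floors (3 reads) cover counting error only.

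Site reads were added up per gene, filtered with filterByExpr, scaled by TMM and fitted by the quasi-likelihood test of edgeR 4.0.16 (R 4.3.3), all 5 libraries together, 2-sided, with Benjamini-Hochberg adjustment over all features; every adjusted p is from this test unless DESeq2 1.42.0 or edgeR's diffSpliceDGE is named. The lone control is so taken to vary as the lines of a knockout do. Site pairs needed an average of 20 reads per library and 5 at each site; the model had library terms and the interaction of site with group. Single sites were fitted the same way against the rest of their gene. P-values set a group difference against the spread between lines of 1 knockout, estimated with information shared over all features. The lone control adds no spread of its own. Members and lists were chosen with earlier results of these data known. Named were all 7 genes, their sites with 5% of reads or a passed test, up to 3 passed genes per role of the pathway list, and the 3 nearest genes in proximal use. Some results that this rule selects are not reported here. GENCODE v29 transcripts were matched by identifier without version. Alternatives left out each line, used DESeq2, diffSpliceDGE, another scaling, other read minimums, other pairs or a block of line numbers.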

Additional observations from a re-analysis of the deposited data

Results flagged for a closer look

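A rule picked pairs and levels with both lines of 1 knockout above the control and both of the other below it. The test of CFIm68 against CFIm59 (edgeR's quasi-likelihood test) had to pass as well, and 4 results met the rule. The NRAS level passed that test too (adjusted p = 4.74e-05), but the control lay between the lines lacking CFIm68. Single sites were not searched, and the share of all genes that meet the rule was not counted. The NRAS site pair differed by 4.25 on the log2 scale (adjusted p = 3.58e-10), with both CFIm59 knockout lines below the control in proximal use and both CFIm68 knockout lines above it. The SOS1 pair differed by 4.18 (adjusted p = 3.78e-08) and the BRAF pair by 2.40 (adjusted p = 0.00138), with the same order of lines. CFIm59 knockout line 2 lay barely below the control, at 30.6% beside 31.7% for SOS1 and 36.8% beside 37.1% for BRAF. In cells lacking CFIm59 no pair passed against the control (adjusted p = 0.154 for NRAS, 0.825 for SOS1 and 0.785 for BRAF). The RRAS2 level differed by 1.67 (adjusted p = 5.05e-06). The knockouts share the control, so only their direct difference is tested here. Groups of 1 and 2 libraries are too small for a check of single libraries that stand apart.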

How the results depend on the processing

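The NRAS and SOS1 pair changes in cells lacking CFIm68, the NRAS level in cells lacking CFIm59 and the NRAS and RRAS2 differences in level between the knockouts passed under every alternative that tested them. Over all alternatives, 221 called values kept their call and 39 lost it. With a minimum of 100 and 20 reads, the passed pairs went from 3 to 1 in cells lacking CFIm68 and from 3 to 1 between the knockouts, as only 1 pair was tested. The passed sites then went from 2 to 1 without CFIm59, from 9 to 4 without CFIm68 and from 14 to 4 between the knockouts, as only 4 sites were tested. In cells lacking CFIm59 3 genes passed in level, 1 with DESeq2 and 1 to 4 with a line left out, and 2 sites passed, 0 with a minimum of 20 and 2 reads, 0 with diffSpliceDGE and 0 to 2 with a line left out.

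Values that missed the threshold turned sign 21 times. With lines left out, log2 changes in cells lacking CFIm59 ranged from -0.221 to 0.218 (BRAF level), -0.0488 to 0.0766 (SOS1 level), -0.403 to 0.0142 (NF1 pair), -1.93 to 0.0449 (BRAF 140424943), -0.589 to 0.136 (MAP2K1 66783881), -0.112 to 0.394 (NF1 29704358), -0.396 to 0.115 (NF1 29704691) and -0.132 to 0.102 (SOS1 39208694). In cells lacking CFIm68 they ranged from -0.0399 to 0.208 (NRAS level), -2.02 to 0.207 (NF1 29704358), -0.504 to 0.308 (NF1 29709132) and -0.628 to 0.00353 (RRAS2 14300402). Between the knockouts they ranged from -0.0309 to 0.294 (MAP2K1 level), -0.393 to 0.183 (RRAS2 pair) and -0.606 to 0.206 (NF1 29709132). With no filter the levels without CFIm59 turned to -0.0505 (BRAF) and -0.0727 (SOS1), with diffSpliceDGE its sites to 0.0281 (NF1 29704691) and 0.137 (SOS1 39208694), and with the outermost sites the NF1 pair between the knockouts to 2.19. The cause was not tested.

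Scaling by nuclear reads moved the median log2 change of all genes to 0.12 without CFIm59, 0.22 without CFIm68 and 0.10 between the knockouts (0.02, 0.02 and 0.00 with TMM), and the genes higher and lower from 1022 and 1006 to 1187 and 735, from 232 and 297 to 406 and 136, and from 1385 and 1503 to 1730 and 1168. DESeq2 called 579, 70 and 1044 genes in level where edgeR called 2028, 529 and 2888, and 25, 850 and 2000 pairs where edgeR called 355, 1651 and 2733. With diffSpliceDGE 110, 2427 and 7471 sites passed, against 835, 4776 and 8738. The labels tie no shared batch to the line numbers, and deviations of same-numbered lines correlated across genes at 0.00682 in level and 0.0330 in proximal use. Between the knockouts, a replicate block of line numbers left 2 genes, 3 pairs and 13 sites passed, against 2, 3 and 14, and the site lost was BRAF 140419137 (log2 -1.11, adjusted p = 0.0544). The pairs of BRAF, NF1, RRAS2 and SOS1 rest on 12 to 127 reads a library.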
